A study of Drosophila melanogaster with 12 samples.

Results

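The cytosolic ribosomal protein (RP) genes were taken as all genes of the deposited count table whose symbol starts with RpL (large, 60S subunit) or RpS (small, 40S subunit). This gave 77 of 8802 genes, 47 of the large and 30 of the small subunit. Of 92 Drosophila gene symbols of this form in the reference annotation, 77 were matched by identifier. The other 15, among them RpS6, RpS12, RpL19, RpL27A and RpL31, were not analysed here. The rule used names and no measured value. It left out the RpSA homologue sta and took in RpL24-like and RpLP0-like, whose yeast counterparts (Rlp24 and Mrt4) act in ribosome assembly in place of the matching ribosomal protein.

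Each cytosolic ribosome carries a single copy of most of these proteins, so their genes are strongly and rather evenly transcribed in most cells. The mRNAs of RP genes are short, and in animals their translation responds to TOR signalling. In Drosophila, loss of a copy of most RP genes gives the Minute phenotype of slow development and thin bristles, and such cells are outcompeted by normal neighbours. Several RP genes have a paralogue, often a retrogene or a tandem copy, and some of these copies are used mainly in the germ line.

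GFP-positive cells of the Drosophila melanogaster gut were sorted from virgin females, using midgut regions R3 to R5, its posterior part. They are labelled early enterocytes, the young absorptive cells of the gut. All 4 groups carried MyoIA-Gal4, UAS-GFP and tubGal80TS, an enterocyte driver held off by a temperature-sensitive repressor. Control flies came from the cross to Canton-S. The other groups carried UAS-SvbRNAi (a VDRC line against Shavenbaby, the transcription factor encoded by ovo), UAS-SvbACT::GFP (its activator form) or UAS-Svb3Kmut::GFP (labelled SvbREP). Flies spent 3 days at room temperature and 6 days at 29 °C and were 9 days old. Every library came from a batch of more than 20 females, and the 3 libraries of a genotype were collected on different days. Since the control cross used another parental stock, stock and transgene cannot be told apart in any comparison with control. Libraries are numbered here as in the sample descriptions.

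The table holds raw read counts, with library totals of 3209182 to 8881488. Counts of ovo did not go with 1 label: they were 63, 11 and 5 in control and 78, 65 and 21 in the libraries labelled SvbRNAi (log2 fold change 0.83, adjusted p 0.468, edgeR quasi-likelihood test). They were 493 to 1612 in SvbACT and 570 to 4019 in SvbREP. Of the marker lists, the 10 enterocyte genes summed to 694 to 1082 CPM (counts brought to an equal total per library) in control, 887 to 1990 in the libraries labelled SvbRNAi, 795 to 800 in SvbACT and 735 to 1217 in SvbREP. The 10 enteroendocrine genes summed to 888 to 3371, 471 to 1173, 301 to 489 and 272 to 475 CPM in the same order, and the 10 visceral muscle genes to 170 to 1050, 13.8 to 602, 69.5 to 243 and 35.0 to 289 CPM. The 7 of 8 progenitor genes in the table summed to 7136 to 7516, 5040 to 5376, 4952 to 8394 and 5851 to 6561 CPM. The progenitor sum hides members that moved in opposite directions. Of the 7, 2 were called higher and 3 lower in the libraries labelled SvbRNAi against control (407 and 517 of all 8296 genes). Dl gave 154, 162 and 220 CPM in control and 482, 558 and 514 there, while esg gave 1450, 1344 and 1255 against 865, 870 and 711. Of the 10 enterocyte genes, 0 were called higher and 1 lower there, against the same background. Among them, alphaTry gave 782, 126 and 149 there (175, 72.8 and 128 in control), so only its library 1 lay above the control range. Myo31DF gave 446, 404 and 445 there (510, 453 and 581 in control). The part of these markers in the RP values below was not tested, and in sorted bulk RNA fewer cells of a type and less RNA per cell cannot be told apart.

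RP genes took 7.39 to 11.5% of all counts. Their mean share was highest in SvbACT and their highest single value was in a SvbREP library, and without SvbREP replicate 1 the SvbREP mean was 10.2%. In control the share of the library total was 7.86, 8.95 and 8.31% in libraries 1, 2 and 3 (8.37% ± 0.55, mean ± SD, n = 3). In the libraries labelled SvbRNAi it was 7.39, 9.28 and 9.06% (8.58% ± 1.04, n = 3). In SvbACT it was 9.45, 10.9 and 9.93% (10.1% ± 0.73, n = 3), so all 3 SvbACT libraries lay above all 3 control libraries. In SvbREP it was 8.13, 11.5 and 9.01% (9.53% ± 1.72, n = 3), with 1 value inside the control range and the others above it. Library 2 had the highest share in every genotype. Set against the control library of the same number, SvbACT was higher by 1.60, 1.93 and 1.62 percentage points. The same differences were 0.278, 2.498 and 0.701 in SvbREP, so the widest of these was in SvbREP library 2. In the libraries labelled SvbRNAi they were -0.469, 0.326 and 0.752. The ratio of large to small subunit counts stayed between 1.70 and 1.81 in all 12 libraries. The share is a sum over the members and was given no test.

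**Figure D1:**
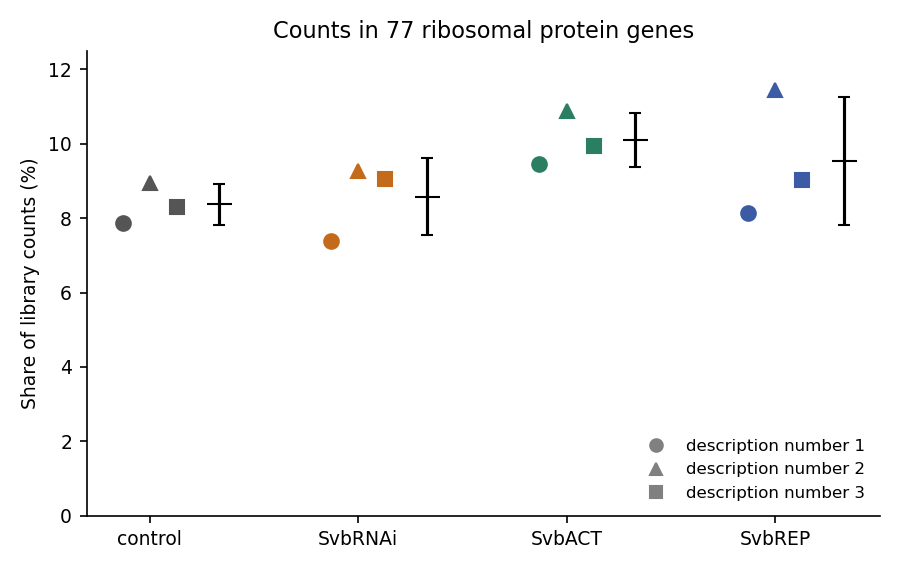
Share of each library's counts (%) that fell in the 77 RP genes, by genotype. Points are libraries, with shapes for the description number, and the bars beside them give mean ± SD (n = 3). The 3 SvbACT libraries sit at 9.45 to 10.9%, above the control libraries at 7.86 to 8.95%.

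Per kilobase of transcript, most RP genes lay between 1000 and 2000 CPM, and some lay far outside. The mean over 12 libraries, in TMM-scaled CPM (with edgeR's correction for composition) divided by the median annotated transcript length, was 1000 to 2000 for 55 of 77 genes, above 2000 for 13 and under 1000 for 9, with a median of 1586. The extremes were 4066 for RpL41, a very short peptide at the interface between the subunits, and 25.7 for RpS15Ab, a copy of RpS15Aa. Without correction for length, the highest mean CPM were those of RpL3, RpL4, RpL23A, RpL6 and RpS4 and the lowest those of RpS15Ab, RpLP0-like and RpL34a. The CPM of single RP genes given here and below are TMM-scaled, unlike the marker sums above. RpL3, which reaches close to the peptidyl transferase centre, gave 3676, 4083 and 4123 CPM in control. It gave 3772, 3755 and 3620 in the libraries labelled SvbRNAi, 4462, 4918 and 3979 in SvbACT and 4462, 4930 and 4925 in SvbREP. The control and SvbREP libraries of RpL3 did not overlap, while those of control and SvbACT did. Its log2 fold changes against control were -0.09, 0.17 and 0.27 (SE 0.12 each), with adjusted p of 0.656, 0.584 and 0.356 (edgeR quasi-likelihood test).

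**Figure D2:**
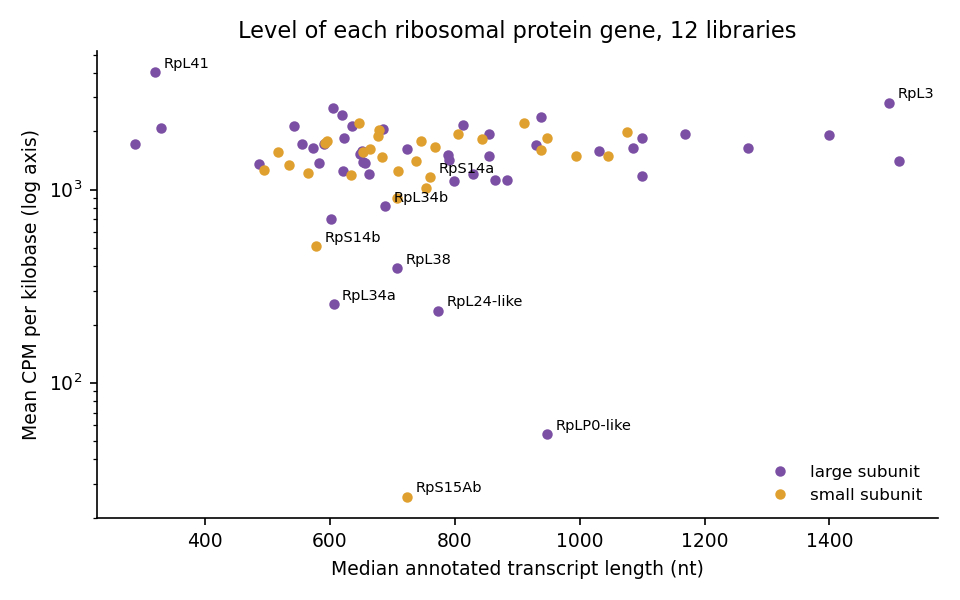
Mean TMM-scaled CPM per kilobase (log axis, 12 libraries) against median annotated transcript length (nt) for the 77 RP genes, coloured by subunit. Of these, 55 lie between 1000 and 2000, and the low points are RpS15Ab, RpLP0-like, RpL24-like, RpL34a, RpL38 and RpS14b.

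RP genes varied together from library to library. Over all 12 libraries pooled, with each value centred on its genotype mean, the median correlation between 2 members was 0.64. This is a description of members that share their libraries. The median deviation of the members from the genotype mean, on the log2 scale, was 0.09, 0.17, 0.07 and 0.28 in library 2 of control, SvbRNAi, SvbACT and SvbREP. In library 1 the deviations were -0.06, -0.24, 0.00 and -0.23. All 77 members were above the genotype mean in SvbREP library 2 and 0 of 77 were above it in SvbREP library 1. The within-genotype SD of log2 CPM had a median of 0.221 over RP genes, against 0.323 over 8219 other genes and 0.200 over the 1826 other genes with at least 100 CPM. The most variable members were RpL41 (SD 0.51), RpL38 (0.47) and RpL39 (0.41), with median transcripts of 320, 707 and 288 nt. The deviation also went with transcript length, differently by library: Spearman's rho over the members ran from -0.49 in library 2 of the libraries labelled SvbRNAi to 0.44 in SvbREP library 3. Other genes of at least 100 CPM went with length in the same direction in these libraries (-0.22 and 0.32), and in SvbREP library 2 rho was -0.51 over them and -0.48 over the members. In SvbACT library 1 it was -0.40 over the members and 0.21 over the other genes, and in SvbACT library 2 it was 0.35 and -0.29, in opposite directions. The part of length in the RP values was not tested.

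**Figure D3:**
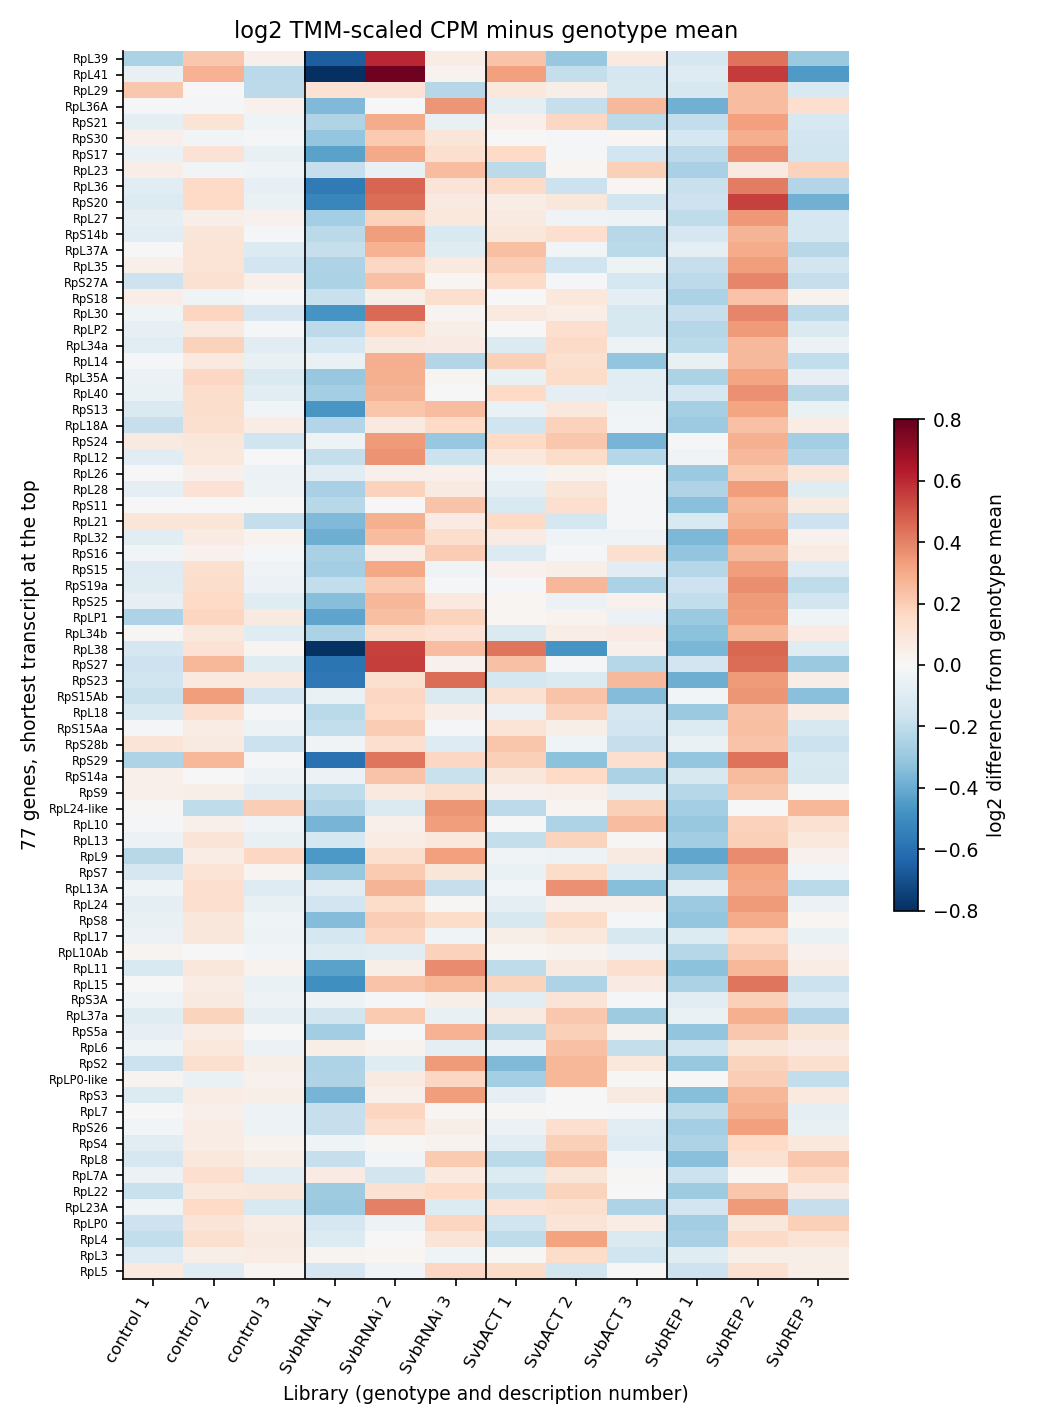
Heat map of the log2 difference between each library's TMM-scaled CPM and its genotype mean, for the 77 RP genes ordered from the shortest transcript (top) to the longest. Columns are libraries. SvbREP library 2 is red in all 77 rows and SvbREP library 1 in none, and RpL39, RpL41 and RpL38 have the deepest colours.

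Expression of SvbACT was compared with control to see how RP genes stand when the activator form is present. All 77 RP genes had a positive log2 fold change, against 52.3% of the 8296 genes tested, with a median of 0.29 (all genes 0.02) and a range of 0.03 to 0.58. No member passed an adjusted p of 0.05 (0 of 77; background 1.54% of genes tested), and DESeq2 also called 0 (background 3.94%). At an unadjusted p under 0.05 there were 17 higher and 0 lower (background 6.50% higher). This count fell to 2 without control replicate 1 (background 4.49%), 7 without control replicate 3 (5.63%), 6 without SvbACT replicate 2 (4.48%) and 11 without SvbACT replicate 3 (4.67%), and was 38 under the replicate block (8.97%). For 43 of 77 members the 3 SvbACT libraries lay above all 3 control libraries (background 9.23%). Scaled by library totals in place of TMM, the median was 0.28, 13 were higher at an unadjusted p under 0.05 (background 5.86%) and 33 did not overlap (background 7.93%). The shift was alike in both subunits, with medians of 0.29 over 47 large and 0.28 over 30 small subunit genes. It was also alike over 38 genes with transcripts up to 707 nt (0.31) and 39 longer ones (0.27), and over the 22 members whose exons overlap a gene of the opposite strand (0.31) and the 55 others (0.28).

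The members with the smallest p in SvbACT were RpL13, RpL23 and RpL7A, all of the large subunit. RpL13 gave 916, 1016 and 907 CPM in control and 1135, 1461 and 1303 in SvbACT, with no overlap. Its log2 fold change was 0.46 (SE 0.15, adjusted p 0.168, edgeR quasi-likelihood test). With the replicate number as a block it was 0.45 and passed (adjusted p 0.0417). RpL13 was the 1 member called under the block, where the background is 3.86%. With library totals and the block, RpL13 and RpL35A were called (background 3.72%). RpL23, which sits at the subunit interface, gave 1020, 969 and 957 CPM in control and 1157, 1351 and 1529 in SvbACT. Its 3 SvbACT libraries again lay above all control libraries (log2 fold change 0.45, SE 0.16, adjusted p 0.214). RpL7A gave 1663, 1888 and 1617 CPM in control and 2063, 2385 and 2246 in SvbACT, also without overlap (0.37, SE 0.13, adjusted p 0.214). At the low end of the range, RpL40, made as a fusion with ubiquitin, gave 1211, 1387 and 1183 CPM in control and 1440, 1221 and 1218 in SvbACT. The groups overlapped, and the log2 fold change was 0.04 (SE 0.18, adjusted p 0.959). The 95% interval of the log2 fold change lay within 2-fold in either direction for 74 of 77 members and within 1.5-fold for 29.

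**Figure D4:**
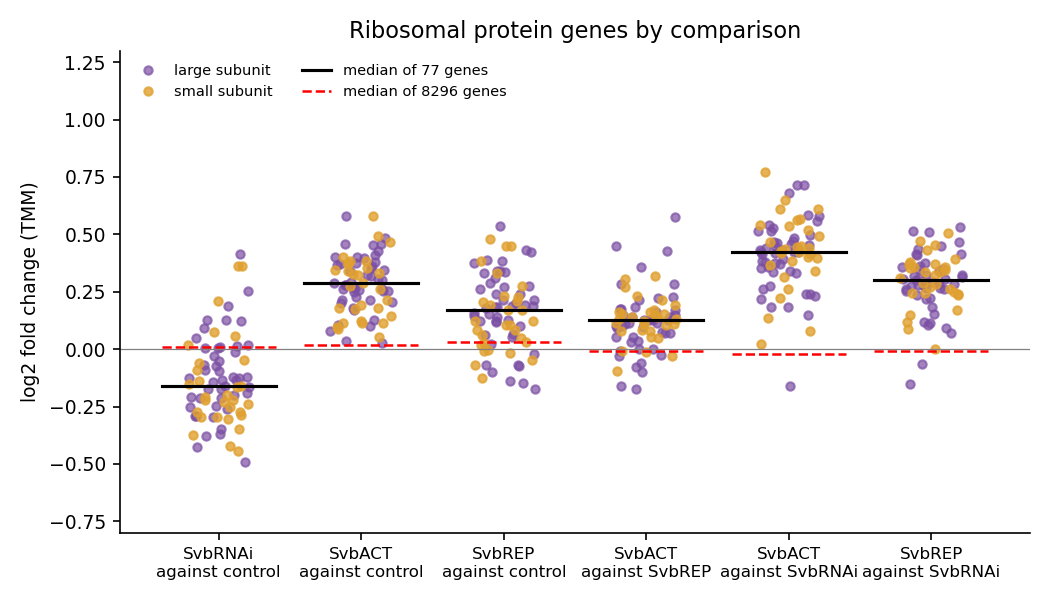
Log2 fold changes (TMM scaling) of the 77 RP genes in 6 comparisons, coloured by subunit. Solid lines are the median of the members and dashed lines the median of all 8296 genes tested. The members' median is 0.29 in SvbACT and 0.17 in SvbREP against control, and -0.16 in the libraries labelled SvbRNAi.

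In SvbREP, RP genes leaned the same way as in SvbACT but less evenly. Both comparisons use the same control libraries. The median log2 fold change against control was 0.17 (all genes 0.03), with 63 of 77 positive (53.1% of all genes). It was 0.00 with 40 positive (52.2% of all genes) when SvbREP replicate 2 was left out. No member was called (0 of 77; background 1.21%), nor by DESeq2 (background 3.31%). At an unadjusted p under 0.05 there were 10 higher and 0 lower (background 6.76% higher). Without SvbREP replicate 1, 2 or 3 this count was 21 (background 6.92%), 3 (5.66%) or 2 (5.51%). Without control replicate 1 it was 3 (3.89%), without control replicate 3 it was 5 (6.80%), and under the replicate block it was 17 (9.75%). For 8 members the libraries did not overlap and SvbREP was higher (background 10.5%), a share near the background. RpL8, which binds close to the peptidyl transferase centre, had the smallest p. It gave 1344, 1562 and 1520 CPM in control and 1670, 2296 and 2446 in SvbREP, without overlap. The log2 fold change was 0.53 (SE 0.17, adjusted p 0.179, edgeR quasi-likelihood test), and 0.52 with an adjusted p of 0.0326 under the replicate block, where it was the 1 member called (background 3.56%; 3.24% with library totals and the block, where it was again the 1 member called). RpL7A gave 1977, 2247 and 2478 CPM in SvbREP (0.37, SE 0.13, adjusted p 0.225) and RpL23 gave 1092, 1373 and 1487 (0.42, SE 0.16, adjusted p 0.264). Both lay above all control libraries.

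Between SvbACT and SvbREP no member was called (0 of 77; background 0.0723%), DESeq2 called 0 (background 0.494%) and 0 members reached an unadjusted p under 0.05 (background 5.12%). Without SvbREP replicate 2, 13 were higher in SvbACT at that p (background 2.43% higher). The median log2 fold change was 0.12 (all genes -0.01), with 64 of 77 positive (48.6% of all genes). This median ran from 0.02 without SvbREP replicate 1 to 0.27 without SvbREP replicate 2. No member separated the SvbACT from the SvbREP libraries (0 of 77; background 4.60% higher and 4.38% lower). The smallest p belonged to RpS25, RpL41 and RpL21. RpS25, a 40S protein used by viral internal ribosome entry sites, gave 1239, 1186 and 1259 CPM in SvbACT and 845, 1230 and 876 in SvbREP. RpL41 gave 2120, 1480 and 1538 against 1023, 1619 and 805. In both genes SvbREP library 2 stood among the SvbACT values. The 95% interval lay within 1.5-fold for 60 of 77 members, and reached past that fold for the other 17.

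In the libraries labelled SvbRNAi, RP genes lay slightly under the typical gene. The typical gene itself moved with the scaling in this comparison, with a median over all genes of 0.01 by TMM and 0.16 by library totals. The median of the members was -0.16 by TMM and -0.01 by library totals, that is -0.17 relative to all genes by either scaling. By TMM 58 of 77 members were negative, by library totals 39. Of all genes, 50.6% were positive by TMM and 61.7% by library totals. No member was called by either scaling (0 of 77; background 11.1% by TMM and 13.9% by library totals). At an unadjusted p under 0.05 there were 1 higher and 3 lower by TMM (background 14.6% and 13.5%) and 5 higher and 0 lower by library totals (background 21.5% and 8.98%). Libraries did not overlap for 2 higher and 14 lower members by TMM (background 18.1% and 17.3%) and for 10 higher and 1 lower by library totals (background 25.7% and 11.9%). The share of RP genes called or not overlapping was thus near or under that of all genes. Leaving out replicate 1 of the libraries labelled SvbRNAi brought the median to -0.03. Leaving out replicate 2 gave 13 lower at an unadjusted p under 0.05 (background 12.9%), and 0 were lower without control replicate 2 or SvbRNAi replicate 1.

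RpL40, RpS14b and RpLP0-like had the smallest p in this comparison. RpL40 gave 734, 1072 and 885 CPM in the libraries labelled SvbRNAi, all under the control values above. Its log2 fold change was -0.49 (SE 0.18, adjusted p 0.0916, edgeR quasi-likelihood test), and it remained without overlap by library totals (-0.34, adjusted p 0.220). DESeq2 called it lower (-0.51, adjusted p 0.0467; background 15.5%), as did the replicate block (-0.50, adjusted p 0.0312). Under the block 4 members were lower and 0 higher (background 9.90% lower and 9.74% higher). The others were RpL37a (-0.37, adjusted p 0.0369), RpS14a (-0.36, 0.0495) and RpS14b (-0.44, 0.0299). Without a block, RpS14b was called when SvbRNAi replicate 2 was left out (-0.61, adjusted p 0.0492; background 7.81%). With library totals and the block, 5 other members were higher and 0 lower (background 16.3% and 7.40%). These were RpS2 (0.51, adjusted p 0.0143), RpL7A (0.35, 0.0473), RpS3A (0.37, 0.0234), RpL34a (0.41, 0.0255) and RpLP0-like (0.56, 0.0388). The direction of the members called under the block thus depended on the scaling. RpLP0-like gave 44.1, 41.8 and 44.4 CPM in control and 48.9, 60.5 and 64.7 in the libraries labelled SvbRNAi, without overlap (0.42, SE 0.18, not called).

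SvbACT was also compared with the libraries labelled SvbRNAi, a comparison added after the values against control were seen. By TMM this gave the widest gap in the median of the 6 comparisons, but by library totals SvbACT against control was wider (0.28 against 0.27). Relative to the median of all genes, SvbACT against control was at 0.27 by either scaling and the present comparison at 0.45. The median log2 fold change was 0.42 (all genes -0.02) with 76 of 77 positive (47.8% of all genes). By library totals it was 0.27 against -0.18, with 72 positive (33.0% of all genes). No member was called (0 of 77; background 2.54%), but 52 were higher and 0 lower at an unadjusted p under 0.05 (background 10.1% higher), and 8 (5.61%) by library totals. Without SvbRNAi replicate 1 the median by TMM was 0.31 and the count at an unadjusted p under 0.05 was 14 (background 8.76%), and the count was 30 without SvbACT replicate 1 (6.37%) and 32 without SvbACT replicate 2 (10.6%). Groups did not overlap for 43 members by TMM (background 11.5%) and 17 by library totals (6.76%). The call rested on the fit. Under the replicate block 26 members were higher (background 4.32%), with library totals and the block 3 (2.63%), and by DESeq2 8 (4.05%). RpL37a, RpS3 and RpL24 had the smallest p. RpS3, part of the mRNA entry channel, gave 885, 1181 and 1443 CPM in the libraries labelled SvbRNAi and 1702, 1779 and 1869 in SvbACT. The groups did not overlap, and the difference was 0.61 on the log2 scale (SE 0.18, not called; under the block 0.63, adjusted p 0.0172). RpL37a gave 1085, 1389 and 1151 against 1886, 2080 and 1469 CPM (0.58, SE 0.17, adjusted p 0.104; under the block 0.58, adjusted p 0.0116). RpL24, in a bridge between the subunits, gave 711, 875 and 798 against 1074, 1166 and 1169 CPM (0.52, SE 0.16, adjusted p 0.113; under the block 0.52, adjusted p 0.0219). RpL37a, RpS3 and RpL23A were the 3 members called with library totals and the block.

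Between SvbREP and the libraries labelled SvbRNAi, also added later, the median was 0.30 (all genes -0.01; 0.16 against -0.15 by library totals). No member was called (0 of 77; background 2.59%), and 17 were higher and 0 lower at an unadjusted p under 0.05 (background 9.81% higher). The median was 0.15 with 4 higher without SvbREP replicate 2 (background 10.2%), and 0.19 with 3 higher without SvbRNAi replicate 1 (8.52%). The count was 44 without SvbREP replicate 1 (8.48%), 34 without SvbRNAi replicate 2 (9.49%) and 42 under the replicate block (11.9%). Under the replicate block 5 were higher (background 4.09%), namely RpL22, RpL37a, RpL24, RpL26 and RpL24-like. DESeq2 called RpL3 and RpL26 (background 3.85%), library totals with the block RpL22 (2.66%), and the fit without SvbREP replicate 1 RpL26 (1.79%). RpL22 gave 843, 1117 and 1149 CPM in the libraries labelled SvbRNAi and 1202, 1703 and 1528 in SvbREP, without overlap. Its log2 fold change was 0.51 (SE 0.17, adjusted p 0.144), and 0.51 with an adjusted p of 0.0131 under the block.

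Of 14 paralogue pairs examined, 5 had both copies in the table, and in each the same copy held most of the counts in every library. RpS14a and RpS14b are tandem genes on the X chromosome, at X:7933742-7934677 and X:7934898-7935792 on the plus strand (dm6 coordinates of the reference annotation). Since near-identical copies can share reads and the counting settings are not given in the sources used here, the split between copies is uncertain. RpS14b held 21.8 to 26.1% of the counts of that pair. RpL24-like held 13.0 to 19.5% of the counts of RpL24 and RpL24-like, RpLP0-like 1.67 to 3.14% beside RpLP0 and RpS15Ab 1.31 to 2.31% beside RpS15Aa.

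In percentage points the split differed most between RpL34a (3R:26058420-26059267, minus strand) and RpL34b (3R:9400237-9401226, minus strand), both of the large subunit. RpL34b held 80.5, 78.3 and 79.4% of the pair in control (79.4% ± 1.09, n = 3). In the libraries labelled SvbRNAi it held 73.1, 75.5 and 75.3% (74.6% ± 1.29, n = 3). It held 78.7% ± 1.25 in SvbACT and 80.4% ± 1.24 in SvbREP (n = 3 each). The 3 libraries labelled SvbRNAi lay below the other 9. A share within a library does not depend on its scaling. For RpLP0-like the mean share was 2.92% ± 0.21 in the libraries labelled SvbRNAi and 2.36% ± 0.28 in control, and for RpS15Ab 2.10% ± 0.18 and 1.48% ± 0.25 (n = 3 each). Both were without overlap. Over 30 comparisons of pair shares (5 pairs, 6 contrasts) 9 had no overlap. Each of these reached p = 0.1, the smallest that the exact two-sided permutation test of 3 against 3 libraries allows, and an adjusted p of 0.333.

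**Figure D5:**
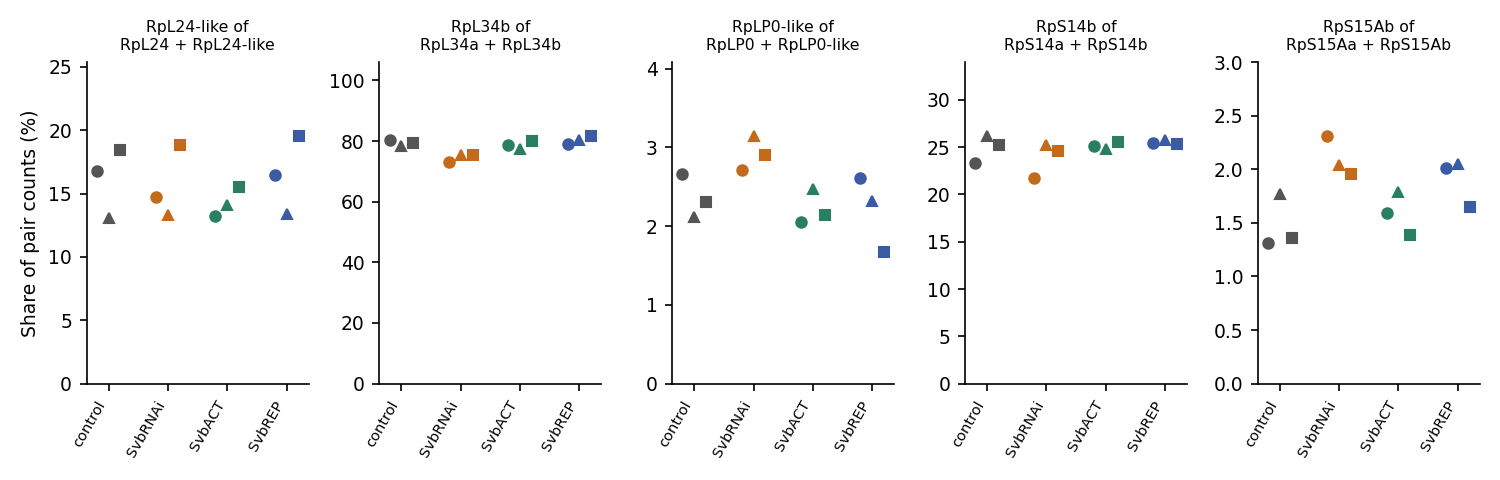
Share of the counts of each paralogue pair (%) that fell in its second copy, by genotype. Points are libraries, with circles, triangles and squares for description numbers 1, 2 and 3. For RpL34b the libraries labelled SvbRNAi sit at 73.1 to 75.5%, below all other libraries.

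Genes that work with the ribosome gave the following counts. Of the mitochondrial ribosomal protein genes, which encode the separate ribosome of that organelle, 11 of 69 were higher and 0 lower in the libraries labelled SvbRNAi (background 4.91% higher), with a median log2 fold change of 0.67. The cytosolic members had a median of -0.16 there. Under the replicate block 28 mitochondrial genes were higher (background 9.74%), and by library totals 21 (9.32%). In SvbACT and SvbREP 0 of 69 were called without the block (background 1.54% and 1.21%), with medians of 0.28 and 0.31, and 1 was higher in SvbREP under the block (background 3.56% called). Among 6 of 7 elongation factors tested, 2 were higher in the libraries labelled SvbRNAi (background 4.91% higher) and 1 in SvbACT (background 1.54% called). Of these, eEF1beta rose in the libraries labelled SvbRNAi (0.63, SE 0.18, adjusted p 0.0386, edgeR quasi-likelihood test) and in SvbACT (0.82, SE 0.18, adjusted p 0.0430), where the call was lost by library totals. A second subunit of the same exchange factor, eEF1delta, rose in the libraries labelled SvbRNAi (0.86, SE 0.23, adjusted p 0.0343). Among 24 of 26 initiation factors tested, the RNA helicase eIF4A fell in the libraries labelled SvbRNAi (-0.55, SE 0.12, adjusted p 0.0152) and 0 others were called against control. Of all 8296 genes, 517 were called lower in the libraries labelled SvbRNAi, so 1 of 24 is no excess. In that comparison 2 initiation factors were higher and 1 lower under the replicate block (background 9.74% higher and 9.90% lower), and 5 were higher and 1 lower by library totals (9.32% higher).

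Of 8 ribosome-associated factors, the termination factor eRF3 rose in the libraries labelled SvbRNAi (0.44, SE 0.13, adjusted p 0.0438), where the background is 4.91% higher. The RpSA homologue sta was not called in any of the 3 comparisons with control (0.23, 0.41 and 0.32, SE 0.14 each, adjusted p 0.302, 0.188 and 0.349). Of 9 of 10 regulators tested, the forkhead factor foxo fell in the libraries labelled SvbRNAi (-0.75, SE 0.18, adjusted p 0.0185), where 517 of all 8296 genes were lower. In SvbACT and SvbREP 0 regulators were called (background 1.54% and 1.21%). Of the genes that respond to RP insufficiency, Xrp1 and its partner Irbp18 were tested and 0 of 2 were called. By the calls in the authors' deposited table, 0 of 77 RP genes changed in each of the 3 comparisons with control, where 14%, 3.18% and 2.93% of all 8802 genes were called in the libraries labelled SvbRNAi, in SvbACT and in SvbREP.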

How the data were processed

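The authors deposited raw counts per gene for 12 libraries, together with log2 fold changes, p-values and a score of -1, 0 or 1 for their calls. RNA was purified with MasterPure and made into Ovation SoLo libraries, read as single 100-nt reads, per the labels' protocols. The submitters' processing notes name dm6, FastQC 0.11.5, STAR 2.5.2b, HTSeq 0.6.0 and edgeR; annotation, strand setting and the rule that chose the genes are not given in the sources used here. The table ends with a header of 12 columns without values, which were not used.

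Counts were fitted in R 4.3.3 with edgeR 4.0.16: filterByExpr with a minimum count of 10 (8296 of 8802 genes, all 77 members included), TMM scaling, a quasi-likelihood model with genotype as the only term over 12 libraries, and two-sided tests adjusted by Benjamini-Hochberg over all genes tested. A gene was called under an adjusted p of 0.05. Every adjusted p comes from this test unless DESeq2 1.42.0 or the exact permutation test is named. SE were derived from the F statistic. Other settings were library totals, relative log expression factors, TMM without the members, no filter, DESeq2, a replicate block and leaving out each library. The fits were tested on simulated data with known changes. Those counts were independent, less dispersed than the real ones and without effects shared by a library. They therefore do not measure error rates or power in these data. Symbols were matched to the BDGP6.54 annotation.

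Same-numbered libraries deviated together over all genes: with the description numbers the correlation was 0.118 to 0.426 and over 0.1 in 18 of 18 pairs. Over all genes these numbers thus pair the samples. Over the RP genes alone the correlation ran from -0.400 to 0.859 (mean 0.346), so not every pair deviated together in these genes. Titles number only the RNAi libraries differently, and title numbers gave 9 of 18. Those 9 are the pairs without an RNAi library, which are the same in both numberings. Replicates differed by more than sampling noise (chi-square per degree of freedom 8.12 to 47.6). At 3 counts, the floor corresponds to 0.338 to 0.935 CPM and covers counting error only. Libraries came from separate batches of flies.

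The members and lists were chosen with earlier results of these data known. Named were ovo, sta, members of paralogue pairs, the 5 members of highest and 3 of lowest CPM, called members, the 3 members of smallest p in each comparison, and called genes of the other lists.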

Additional observations from a re-analysis of the deposited data

Results flagged for a closer look

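A rule for closer reading was applied only to members already named, not to all 77, and no share over all genes was counted. For 7 of these named members, every library labelled SvbRNAi lay on 1 side of the control mean and every library of another genotype on the opposite side. RpL3, RpL22, RpL24 and RpL26 had been named partly for a small p in comparisons with the libraries labelled SvbRNAi, so their selection was not independent of this opposition. Whether that opposition exceeds chance was not tested. In the libraries labelled SvbRNAi the log2 fold changes against control were -0.17 for RpL22, opposite to both SvbACT and SvbREP, and -0.092 for RpL3, also opposite to both. They were -0.25 for RpL24, -0.14 for RpL26, -0.21 for RpL7 and -0.047 for RpS4, all opposite to SvbACT, and -0.075 for RpL6, opposite to SvbREP. The direct comparison of SvbACT with the libraries labelled SvbRNAi called 0 of these by the edgeR quasi-likelihood test. With the replicate block it called RpL22 (0.52, adjusted p 0.0140), RpL24 (0.52, adjusted p 0.0219) and RpL7 (0.47, adjusted p 0.0375). That comparison draws on the same values as the rule, so it gives no separate support. By library totals the values of the libraries labelled SvbRNAi against control move up with the median of all genes, from 0.01 to 0.16.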

How the results depend on the processing

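Over 22 results, 249 alternatives left the value within a set SD or its count within 1.5 times, and 19 did not. The 19 include the RP share of every genotype with the 100 highest other genes left out of the total. That share must rise, because the same RP counts are divided by a smaller total. The cause of the other moves was not tested. For the medians the yardstick was the SD between single libraries of a genotype, 0.179. It is not the standard error of a difference between groups of 3 libraries and is wider than that. This yardstick is larger than the medians themselves in the libraries labelled SvbRNAi (-0.16) and in SvbREP (0.17) against control. By this rule the SvbREP median counted as unmoved even at 0.00, without SvbREP replicate 2. A count of 0 that stayed at 0 also counted as unmoved. The tally thus cannot show that these medians are stable. Counts of members called against control moved as follows. In the libraries labelled SvbRNAi, DESeq2 called 1 lower, the replicate block from the description numbers 4 lower, and library totals with that block 5 higher. In SvbACT the block called 1 higher and library totals with the block 2 higher (RpL13 and RpL35A). In SvbREP each of these called 1 higher. Against the libraries labelled SvbRNAi, SvbACT had 8 higher by DESeq2, 26 under the block and 3 with library totals and the block, and SvbREP had 2, 5 and 1. The block from the title numbers called 0 in each. The combined setting and both comparisons with the libraries labelled SvbRNAi were chosen after seeing the data.

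Leaving out each library in turn gave 0 to 1 members called lower in the libraries labelled SvbRNAi against control (RpS14b, -0.61, adjusted p 0.0492, edgeR quasi-likelihood test, without SvbRNAi replicate 2) and 0 to 1 higher in SvbREP against them (without SvbREP replicate 1). The median log2 fold change over the members then ran from -0.25 to -0.03 in the libraries labelled SvbRNAi, 0.25 to 0.34 in SvbACT and 0.00 to 0.26 in SvbREP, each against control. It ran from 0.02 to 0.27 between SvbACT and SvbREP, and against the libraries labelled SvbRNAi from 0.31 to 0.51 in SvbACT and 0.15 to 0.41 in SvbREP. With the 100 highest other genes left out of the total, the share of RP counts was 11.4, 11.2, 13.7 and 12.9% in control, SvbRNAi, SvbACT and SvbREP.

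With 3 libraries a genotype the median 95% half-width was 0.37 on the log2 scale without the block. The stock differs between control and the other crosses, and 15 RP genes were not analysed here.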
